A study of Bos taurus with 12 samples.

Results

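The DLK1-DIO3 locus is an imprinted region that holds one of the largest miRNA clusters of placental mammals. The protein-coding genes DLK1, RTL1 and DIO3 are expressed from the paternal copy, whereas the noncoding RNAs MEG3, MEG8 and the RNA antisense to RTL1, together with the miRNAs, are expressed from the maternal copy. Many of these miRNAs are known for expression in brain, embryo, placenta and muscle, and in sheep the region carries the callipyge mutation, which enlarges skeletal muscle. Here the miRNAs of this cluster are described in the mammary gland of dairy cows that differed in milk protein percentage and in stage of lactation.

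The members were chosen by name: every known bovine miRNA whose number belongs to the cluster, with any letter or arm suffix, kept once at its precursor of highest mean. They came to 36 mature miRNAs of 388 in the deposited table. Of the 41 miRNA numbers in the rule, 30 had a row, and miR-136, miR-329, miR-376, miR-377, miR-412, miR-539, miR-541, miR-656, miR-668, miR-889 and miR-1193 were not analysed here. All 36 matched a miRNA gene of the RefSeq annotation (assembly ARS-UCD2.0, used only for names and order), and all lay on the same chromosome in a single run between DLK1 and DIO3. By position, 7 belonged to the group near MEG3 and the RNA antisense to RTL1 (miR-493, miR-665, miR-431, miR-433, miR-127, miR-432 and miR-370, called here the MEG3/anti-RTL1 group), and 29 to the large group that runs from miR-379 towards miR-656.

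Small RNA was sequenced from mammary biopsies of 12 multiparous, healthy, mastitis-free Chinese Holstein cows, with one library from each cow. Each of the 4 groups had 3 cows. Cows sampled at peak lactation formed HP, with high milk protein percentage, and LP, with low milk protein percentage. Cows sampled while not lactating formed HD (high) and LD (low). The cows were untreated, each stage was sampled in different cows, and the labels name no batch. The values are TPM as the authors called them, that is, reads of a miRNA scaled to the total of miRNA reads in the library, with no correction for length. Depth was estimated from the steps between the lowest values, each taken as a whole multiple of what 1 read is worth. It came to 6026620 to 23577191 reads in a library. The study reported a nearly equal number of clean reads in all libraries, not all of them miRNA. The highest estimates come close to that number, so the estimates are not sure counts of miRNA reads. By this estimate the libraries of lactation, at 6026620 to 13373813 reads, were mostly shallower than the non-lactating ones, at 11047232 to 23577191. A count of 3 reads would then correspond to 0.127 to 0.498 TPM depending on the library, and 33 of the 36 members stood above 3 reads in every library. The exceptions were miR-431, miR-154a and miR-496, the last of which was down to 1 read in one library. Library LD replicate 1 stood apart within its group: in deposited TPM it was the highest of the 3 LD libraries for 34 of the 36 members and for 77.1% of all miRNAs, and after division by size factors for 27 of the 36 members and 36.9% of all miRNAs. HD replicate 1 was also mostly the highest of its group in deposited TPM, for 25 of the 36 members and 59.5% of all miRNAs. After division by size factors that held for 14 of the 36 members and 35.8% of all miRNAs. Some counts of members and the mean LD sum are therefore also given without LD replicate 1. Most other values of the non-lactating period include that library.

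The levels of the members were uneven. One miRNA, miR-411a, whose precursor lies next to that of miR-379 at the start of the large group, had a mean of 5230 TPM over the 12 libraries and ranked at 25 of 388. It made up 72.9% of the summed level of the cluster. The next most abundant were miR-127, a maternally expressed miRNA that lies antisense to RTL1, at a mean of 312.6 TPM, miR-154c at 271.7 TPM, miR-380-3p at 217 TPM, miR-410 at 153.9 TPM, miR-379 at 137.7 TPM, miR-369-3p at 124.5 TPM, miR-381 at 113.5 TPM, miR-432 at 113.1 TPM and miR-411c-5p at 86.7 TPM. In all, 9 members had a mean over 100 TPM, 16 lay between 10 and 100 TPM, and 11 lay under 10 TPM. Only 3 of the 36 were among the 100 most abundant miRNAs of the table.

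The cluster as a whole was a minor share of mammary miRNA in lactation and about 3 times as large a share in the non-lactating period. The summed level of the 36 members was 0.323%, 0.299% and 0.335% of all TPM in the HP libraries and 0.392%, 0.431% and 0.332% in the LP libraries. It was 1.1%, 1.15% and 1.30% in the HD libraries and 1.41%, 0.664% and 0.872% in the LD libraries. Every library of lactation was thus below every non-lactating library. Without miR-411a the summed levels of the stages overlapped, with LP replicate 2 at 0.177% above LD replicate 2 at 0.141% of all TPM. HP and LP overlapped, with the lowest LP library between the HP libraries, and the LD libraries spread on both sides of the HD libraries. The mean of the LD sums was 9833 ± 3875 TPM (SD, n = 3), and 7678 TPM without LD replicate 1. In TPM the sums averaged 3519 ± 492 (SD, n = 6) in lactation and 10824 ± 2763 (SD, n = 6) outside lactation. These sums are descriptions and were not tested.

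**Figure D1:**
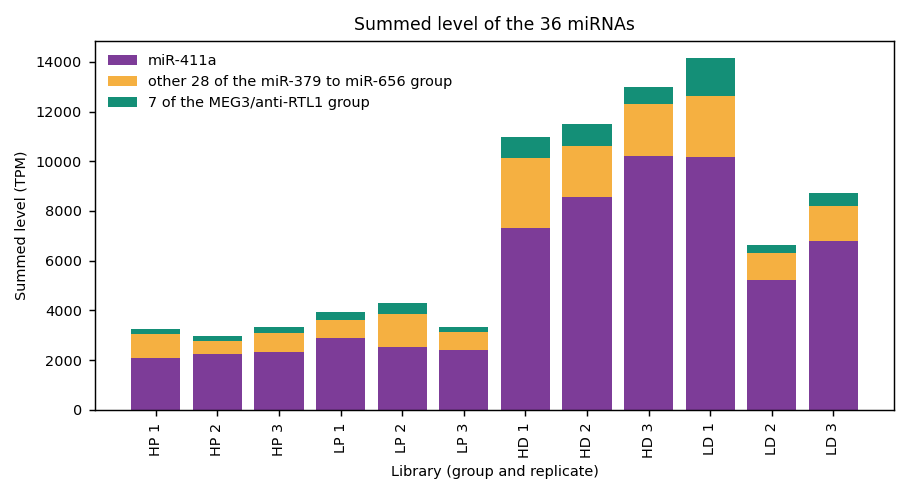
Summed level of the 36 miRNAs (TPM, vertical axis) in each of the 12 libraries (horizontal axis), stacked as miR-411a, the other 28 of the miR-379 to miR-656 group and the 7 of the MEG3/anti-RTL1 group. The 6 libraries of lactation lie between 2988 and 4308 TPM and the 6 non-lactating libraries between 6637 and 14142 TPM, and miR-411a is the largest block in every library.

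The first comparison asked whether the members differed between lactation and the non-lactating period. Of the 36 members, 26 were lower in lactation at an adjusted p under 0.05 (limma over all 388 miRNAs, Benjamini-Hochberg) and 0 were higher, also at an unadjusted p under 0.05. Over all 388 miRNAs, 22.2% were lower in lactation by the same rule and 22.2% were higher. The log2 fold change of lactation over non-lactating was below 0 for 35 of the 36, with a median of -0.98 against -0.01 over all miRNAs. Without LD replicate 1 the number of members lower in lactation was 25. Over all miRNAs 182 then passed in either direction, in place of 172. In the MEG3/anti-RTL1 group 6 of 7 members fell in lactation, with a median log2 fold change of -1.30, and in the miR-379 to miR-656 group 20 of 29, with a median of -0.87.

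Among the abundant members, miR-411a had 2067, 2245 and 2337 TPM in HP, 2872, 2542 and 2408 TPM in LP, 7306, 8554 and 10208 TPM in HD and 10186, 5229 and 6801 TPM in LD. All 6 libraries of lactation were below all 6 non-lactating libraries. Its log2 fold change of lactation over non-lactating was -1.60 (SE 0.21, adjusted p = 0.000133 in limma). miR-410, the last member along the locus, had 54.1, 47.3 and 61.0 TPM in HP, 63.4, 113.3 and 64.8 TPM in LP, 359.3, 365.8 and 195.7 TPM in HD and 325.9, 91.9 and 104.0 TPM in LD. The stages overlapped only through the highest LP library and the lower LD libraries, with a log2 fold change of -1.56 (SE 0.21, adjusted p = 0.000133 in limma). miR-154c had 146.5, 72.3 and 125.2 TPM in HP, 132.9, 205.2 and 89.3 TPM in LP, 566.1, 520.0 and 445.0 TPM in HD and 464.6, 219.2 and 274.6 TPM in LD. Its stages did not overlap, and it fell by 1.57 on the log2 scale in lactation (SE 0.22, adjusted p = 0.000198 in limma).

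In the MEG3/anti-RTL1 group, miR-370 showed the largest drop of the group. It had 5.14, 3.18 and 2.15 TPM in HP, 3.07, 3.47 and 2.90 TPM in LP, 24.1, 16.6 and 22.7 TPM in HD and 58.4, 6.51 and 12.4 TPM in LD. The stages did not overlap, although the LD libraries spread widely, with a log2 fold change of -2.13 (SE 0.33, adjusted p = 0.000357 in limma). miR-493, the first member along the locus, had 30.4, 23.1 and 32.3 TPM in HP, 27.7, 37.1 and 28.1 TPM in LP, 137.3, 129.6 and 90.4 TPM in HD and 253.7, 44.0 and 54.7 TPM in LD, again without overlap of the stages (log2 fold change -1.62, SE 0.25, adjusted p = 0.000357 in limma). miR-127 had a mean of 169.3 ± 80.1 TPM (SD, n = 6) in lactation and 456 ± 217 TPM (SD, n = 6) outside lactation, with a log2 fold change of -1.32 (SE 0.28, adjusted p = 0.00242 in limma). miR-432 also lies antisense to RTL1 and fell to a like extent, from 170.1 ± 94.0 to 56.2 ± 17.4 TPM (SD, n = 6 each; log2 fold change -1.30, SE 0.25, adjusted p = 0.00128 in limma). For miR-127 and miR-432 the ranges of the stages overlapped. The remaining members of the group that fell were miR-665 (-1.29) and miR-433 (-0.97). miR-431, at a mean of 1.03 TPM and near the depth limit, had a log2 fold change of -0.53 and did not pass the test (adjusted p = 0.140 in limma).

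Other members of the large group, several of them of low level, also differed between the stages. miR-134, known from neurons, where it acts on Limk1 in dendritic spines, had a mean of 0.89 ± 0.28 TPM (SD, n = 6) in lactation and 3.28 ± 1.58 TPM (SD, n = 6) outside lactation, with a log2 fold change of -1.02 (SE 0.16, adjusted p = 0.000357 in limma). miR-496 had a log2 fold change of -1.002 (SE 0.16, adjusted p = 0.000404 in limma), at levels of 0.28 ± 0.18 and 1.70 ± 0.64 TPM (SD, n = 6 each). At these levels the added pseudocount of 1 TPM makes the log2 fold change smaller than the ratio of the means. miR-382 fell by 1.41 (SE 0.23, adjusted p = 0.000410 in limma) and miR-154b by 1.37 (SE 0.25, adjusted p = 0.00112 in limma) on the log2 scale. miR-380-3p (-0.999), miR-369-5p (-0.997), miR-485 (-1.20), miR-409a (-1.04) and miR-411c-3p (-1.65) were lower too.

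The lowest fold change belonged to miR-379, the member that gives the large group its name, but with the widest error of those that passed. It had a mean of 37.3 ± 35.3 TPM (SD, n = 6) in lactation and 238.2 ± 195.7 TPM (SD, n = 6) outside lactation, with a log2 fold change of -2.56 (SE 0.75, adjusted p = 0.0151 in limma). Its non-lactating libraries ran from 28.3 TPM in HD replicate 2 to 483.0 TPM in LD replicate 3, and the stages overlapped. In HD replicate 2 and LD replicate 1, where miR-379 was lowest for the stage, miR-411a from the adjacent precursor was at 8554 and 10186 TPM. The ratio of miR-411a to miR-379 was therefore 302 and 211 in those libraries and between 14.1 and 45.9 in the other 4 non-lactating libraries. This ratio was examined after the values were seen and was not tested.

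The 10 members that did not pass the stage test were miR-323, miR-494, miR-369-3p, miR-381, miR-411c-5p, miR-431, miR-487b, miR-495, miR-543 and miR-655. miR-323 had the only positive log2 fold change, at 0.13 (SE 0.26), with 1.98 ± 1.24 TPM (SD, n = 6) in lactation and 1.98 ± 1.38 TPM (SD, n = 6) outside lactation. miR-494 had 44.4 ± 41.7 TPM (SD, n = 6) in lactation and 44.8 ± 33.4 TPM (SD, n = 6) outside lactation, and ranged from 13.1 to 107.6 TPM within lactation alone. miR-369-3p (-0.27, SE 0.34), miR-381 (-0.40, SE 0.25) and miR-411c-5p (-0.32, SE 0.22) were among the abundant members that did not pass. These values fell within the spread between the libraries, which leaves the stage difference of these members undetermined.

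**Figure D2:**
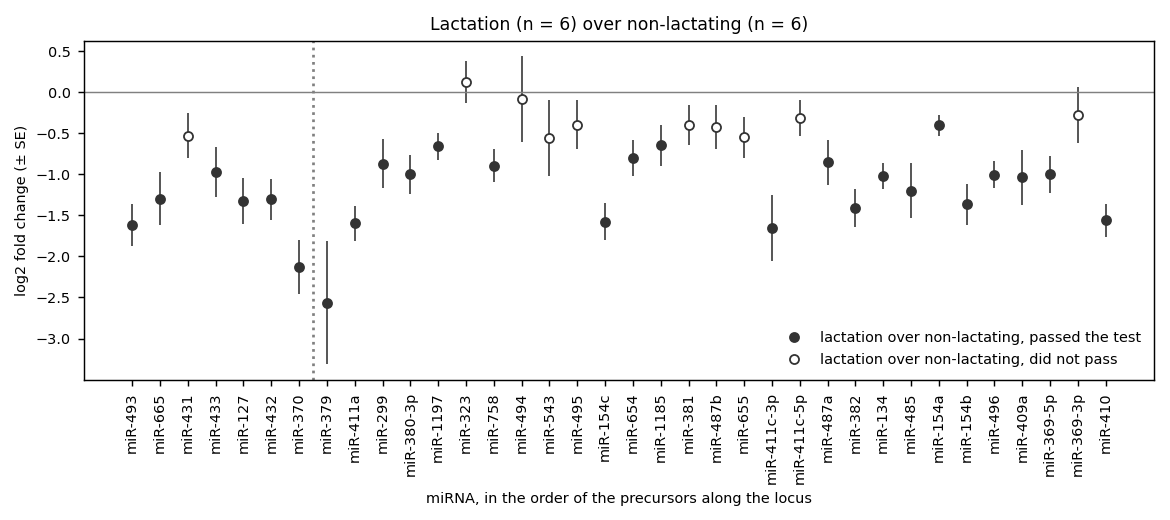
Log2 fold change of lactation (n = 6) over non-lactating (n = 6) for the 36 miRNAs in locus order. Bars are standard errors, filled points passed the test at an adjusted p under 0.05, and the dotted line parts the MEG3/anti-RTL1 group (left) from the miR-379 to miR-656 group (right). All 26 filled points lie below 0, from -2.56 for miR-379 to -0.40 for miR-154a.

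The stages were also counted within each phenotype. In 28 of the 36 members all 3 HP libraries were below all 3 HD libraries, against 28.4% of all miRNAs. In 8 of the 36 all 3 LP libraries were below all 3 LD libraries, against 15.2% of all miRNAs. These counts were not tested against each other. Over all 6 libraries of each stage, 7 members did not overlap (miR-493, miR-370, miR-411a, miR-154c, miR-134, miR-496 and miR-409a), against 9.28% of all miRNAs that were lower in every library of lactation.

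Other miRNAs moved with the stage as well. Of 6 epithelial miRNAs (the miR-200 family and miR-205), 5 were higher in lactation, and their summed level was 34301 to 44371 TPM in lactation and 14978 to 38785 TPM in the non-lactating period. Of 4 stromal miRNAs, miR-214 (-1.17) and miR-199a-3p (-0.63) were lower in lactation, while miR-199a-5p (0.42) and miR-199b (-0.06) did not pass. Their summed level was 7808 to 15324 TPM in lactation and 8966 to 24230 TPM in the non-lactating period. Both endothelial miRNAs, miR-126-3p and miR-126-5p, were higher in lactation, with sums of 10665 to 16528 and 4676 to 10738 TPM. Of 6 neuronal miRNAs, miR-9-5p (-1.39) and miR-9-3p (-0.65) were lower in lactation, with sums of 4.65 to 14.1 and 20.1 to 36.9 TPM, whereas miR-124a, miR-124b, miR-137 and miR-219 had no row in the table. Of 4 leukocyte miRNAs, miR-142-5p (-0.77) was lower in lactation, with sums of 4991 to 8776 and 7941 to 19891 TPM. The others, miR-142-3p (-0.48), miR-150 (0.34) and miR-223 (0.13), did not pass. Of 4 skeletal muscle miRNAs with a row, miR-499 was higher in lactation (1.14), with sums of 113.8 to 406.7 and 94.0 to 742.0 TPM. Below 0 but without passing were miR-1 (-0.48), miR-133a (-0.46) and miR-133b (-0.49). None of the 2 smooth muscle and 3 red blood cell miRNAs passed the stage test. The part of these shifts, and of the lower estimated depth in lactation, in the result for the cluster was not tested. In bulk tissue, fewer cells of a type and less RNA in each cell cannot be told apart. Outside the locus, miR-296-3p, from the imprinted GNAS region, was lower in lactation (-1.51, SE 0.29), while miR-296-5p (-0.50) and miR-483, from the imprinted IGF2 gene (0.08), did not pass. Of the miRNA genes that lie between the first and last member, miR-3956 and miR-3957 had rows but were not named by the rule, and they had log2 fold changes of -1.17 (SE 0.23) and -0.97 (SE 0.28), both past the test.

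**Figure D3:**
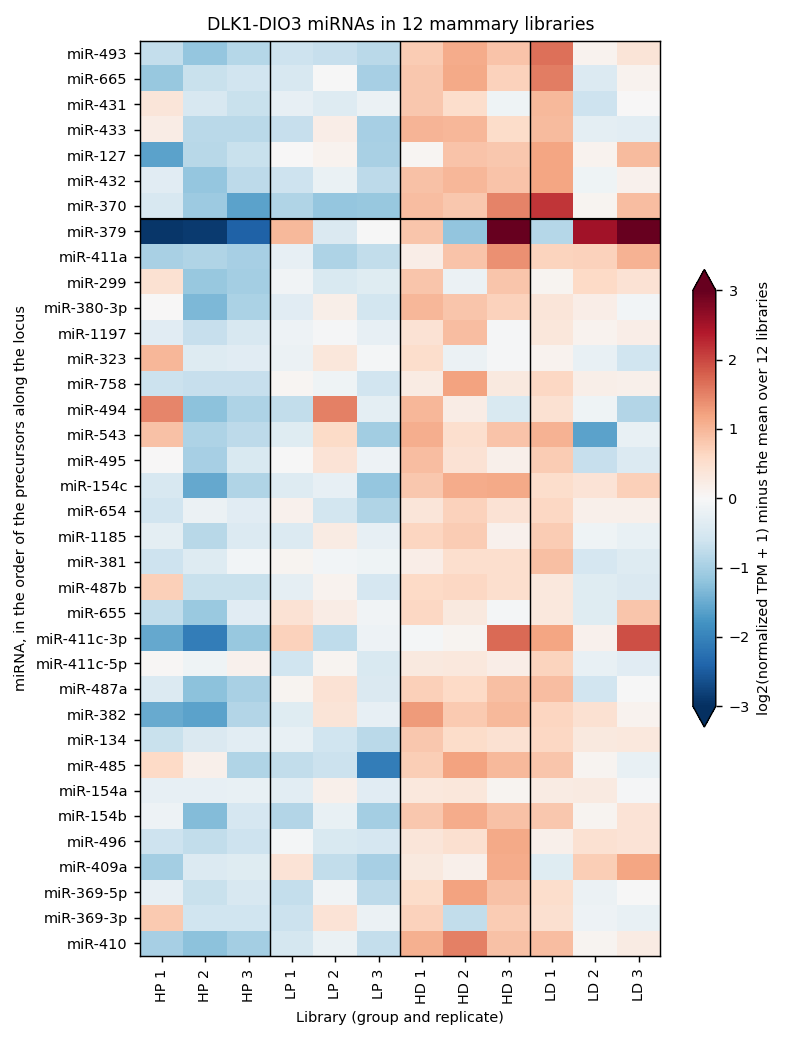
Log2(normalized TPM + 1) minus its mean over the 12 libraries for each of the 36 miRNAs (rows, in locus order, the MEG3/anti-RTL1 group above the thick line) in the 12 libraries (columns, by group), with colours that stop at -3 and 3. The HD columns and LD replicate 1 are mostly red and the HP columns mostly blue, and the row of miR-379 departs from its neighbours in HD replicate 2 and LD replicate 1.

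The second comparison set LP against HP, the phenotypes of milk protein percentage at peak lactation. miRNAs were called differentially expressed (DE) at an unadjusted p under 0.05 with a log2 fold change beyond 0.8 in either direction, the limits that the study set. Of the 36 members, 6 were DE between HP and LP, against 10.1% of all miRNAs. The number higher in LP was 5, against 5.93% of all miRNAs, and 1 was lower, against 4.12%. All 6 belonged to the miR-379 to miR-656 group, and 0 of the 7 members of the MEG3/anti-RTL1 group were DE or had an unadjusted p under 0.05 in limma. After adjustment over all 388 miRNAs, miR-379 alone of the members passed. Without LP replicate 3, miR-127 of the MEG3/anti-RTL1 group was DE too, as was miR-380-3p of the large group without HP replicate 1. The study listed miR-379, miR-382, miR-411c-3p and miR-655 from these same libraries, so their presence here is not independent evidence. It described these members as lower in LP relative to HP. That is opposite to the direction of the deposited columns. Outside the cluster, miR-143, miR-451, miR-144 and miR-150 of the cell type lists also had signs opposite to those the study gave. What lies behind these opposite signs is not known. The median log2 fold change of LP over HP was 0.24 for the 36 members and -0.01 for all miRNAs.

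miR-379 had 6.64, 7.01 and 11.2 TPM in the HP libraries and 94.3, 49.3 and 55.0 TPM in the LP libraries. The groups lay far apart, and the log2 fold change of LP over HP was 2.86 (SE 0.41, adjusted p = 0.0149 in limma). It kept its direction and an unadjusted p under 0.05 without any one library, but the adjusted p in limma was 0.0981 without HP replicate 2, 0.0755 without LP replicate 1 and 0.0712 without LP replicate 3, and 0.367 when all 12 libraries shared a fit. Its neighbour miR-411a had a log2 fold change of 0.27 (SE 0.25, adjusted p = 0.716 in limma), so the ratio of miR-411a to miR-379 was 208 to 320 in HP and 30.5 to 51.5 in LP. miR-411c-3p had 2.99, 1.79 and 4.89 TPM in HP and 14.9, 6.86 and 9.21 TPM in LP, without overlap, and a log2 fold change of 1.46 (SE 0.43, unadjusted p = 0.00663 and adjusted p = 0.203 in limma). miR-382 had 2.65, 2.53 and 5.47 TPM in HP and 5.98, 15.0 and 7.69 TPM in LP. Its groups were also apart, though narrowly, with a log2 fold change of 1.21 (SE 0.36, unadjusted p = 0.00747 and adjusted p = 0.203 in limma).

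The other 3 DE members rested on overlapping groups. miR-655, which is known to repress the epithelial-mesenchymal transition factor ZEB1, had 15.4, 12.2 and 24.0 TPM in HP and 30.4, 36.9 and 24.0 TPM in LP (log2 fold change 0.85, SE 0.35, unadjusted p = 0.0339 and adjusted p = 0.280 in limma). The highest HP library was just above the lowest LP library. miR-487a had 3.65, 1.71 and 2.54 TPM in HP and 4.71, 8.73 and 3.53 TPM in LP (log2 fold change 0.85, SE 0.35, unadjusted p = 0.0368 and adjusted p = 0.286 in limma). miR-485, a neuronal miRNA, was the member lower in LP, with 13.3, 9.79 and 4.69 TPM in HP and 3.96, 5.97 and 1.26 TPM in LP (log2 fold change -1.14, SE 0.50, unadjusted p = 0.0465 and adjusted p = 0.307 in limma). The calls of miR-655, miR-487a and miR-485 were all lost without HP replicate 2 and also without LP replicate 1. The count of DE members was then 3 in place of 6. Over all miRNAs it was 33 without HP replicate 2 and 24 without LP replicate 1, in place of 39. The call of miR-655 was lost too without HP replicate 1 or LP replicate 2. That of miR-487a was lost too without HP replicate 3 or LP replicate 2, and that of miR-485 without HP replicate 1 or LP replicate 3. miR-379, miR-382 and miR-411c-3p kept an unadjusted p under 0.05 and a log2 fold change beyond 0.8 whichever of the 6 libraries was left out.

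In deposited TPM, HP and LP did not overlap in 7 of the 36 members, against 17.3% of all miRNAs. Beside miR-379, miR-411c-3p and miR-382 these were miR-411a, miR-410, miR-1197 and miR-496, for which the log2 fold changes of LP over HP were 0.27 to 0.55 and the adjusted p in limma was 0.432 to 0.716. Of these, miR-1197 and miR-496 had low means, at 1.37 and 0.99 TPM. Among the miRNAs of other cell types, miR-143 of smooth muscle (0.85) and miR-451 (1.36) and miR-144 (1.58) of red blood cells were DE and higher in LP, and miR-150 of leukocytes was DE and lower (-1.69). The other smooth muscle miRNA, miR-145, was not DE (-0.61, SE 0.94). Nor were the other leukocyte miRNAs, miR-142-5p (-0.09), miR-142-3p (0.14) and miR-223 (0.41). The summed levels were 58589 to 84391 TPM in HP and 112785 to 145006 TPM in LP for the smooth muscle miRNAs. That sum was almost wholly miR-143, as miR-145 had a mean of 14.8 TPM. The sums were 781 to 1378 and 1126 to 2041 TPM for the red blood cell miRNAs, and 5616 to 8776 and 4991 to 6819 TPM for the leukocyte miRNAs. No epithelial, stromal, endothelial, neuronal or skeletal muscle miRNA of the lists was DE. The part of these shifts in the members' differences was not tested.

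**Figure D4:**
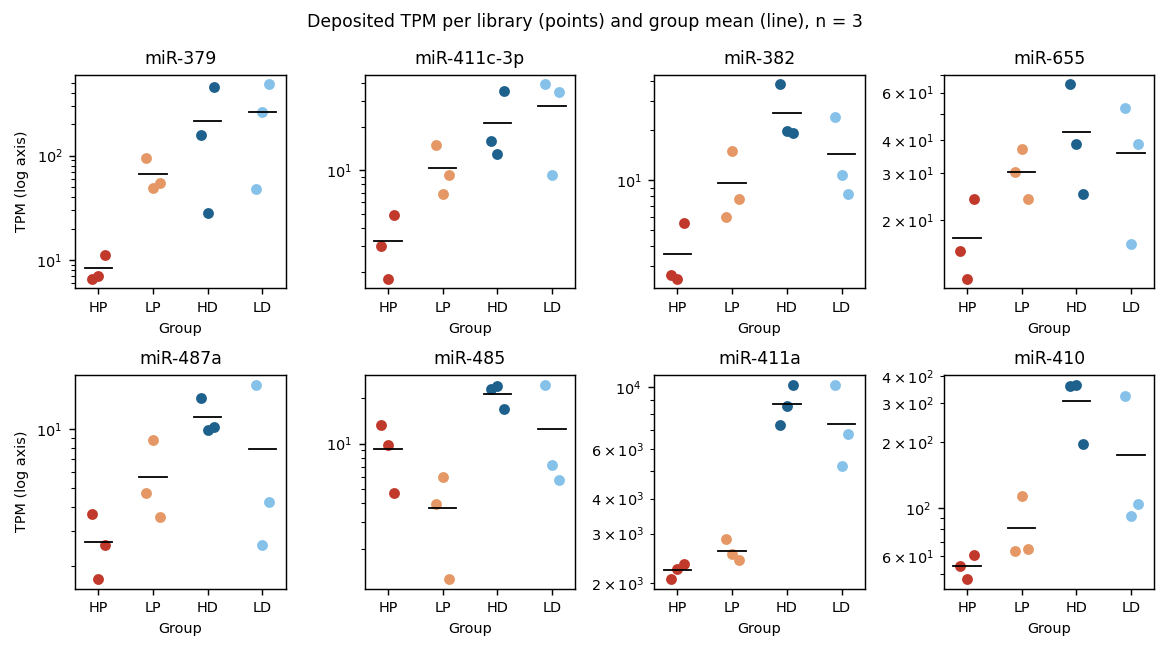
Deposited TPM (log axis, range set for each miRNA) of the 6 DE members and of miR-411a and miR-410 in the 4 groups (n = 3 each). Points are libraries and lines are group means. The HP points of miR-379, at 6.64 to 11.2 TPM, lie below all other points, and those of miR-411a and miR-410 lie below the LP points by a small margin.

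The third comparison, LD against HD in cows that were not lactating, gave 0 DE members of 36, against 3.35% of all miRNAs. At an unadjusted p under 0.05 in limma alone there were 4, all lower in LD, against 2.32% of all miRNAs. These were miR-369-5p, miR-380-3p, miR-410 and miR-487b, and none passed the adjustment (adjusted p = 0.935 in limma for each). miR-380-3p had 535.7, 360.0 and 270.1 TPM in HD and 347.7, 158.4 and 130.4 TPM in LD, with overlap, and a log2 fold change of LD over HD of -0.71 (SE 0.25, unadjusted p = 0.0240 in limma). miR-369-5p had 60.4, 71.6 and 47.7 TPM in HD and 60.0, 18.3 and 21.01 TPM in LD (log2 fold change -0.80, SE 0.33, unadjusted p = 0.0420 in limma). miR-410 had a log2 fold change of -0.77 (SE 0.31, unadjusted p = 0.0404 in limma), and miR-487b, at 94.9, 72.2 and 55.1 TPM in HD and 78.0, 24.6 and 23.6 TPM in LD, also -0.77 (SE 0.31, unadjusted p = 0.0393 in limma). In each of them LD replicate 1 lay within the HD range while the other LD libraries lay below it.

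The log2 fold change of LD over HD was below 0 for 33 of the 36 members, with a median of -0.35, against a median of 0.03 over all miRNAs. The exceptions were miR-379 (0.76, SE 1.33), miR-411c-3p (0.47, SE 0.62) and miR-127 (0.14, SE 0.35). Without LD replicate 1, 11 members were DE and all 11 were lower in LD: miR-369-5p, miR-381, miR-410, miR-432, miR-433, miR-485, miR-487a, miR-487b, miR-495, miR-543 and miR-665. The DE miRNAs over the whole table then numbered 36 in place of 13. Leaving out any other library of the stage gave 0 or 1. miR-379 spread too widely to compare, with 159.2, 28.3 and 449.7 TPM in HD and 48.3, 260.5 and 483.0 TPM in LD. HD and LD did not overlap in 1 of the 36 members, miR-496, against 7.22% of all miRNAs. It had 1.99, 1.68 and 2.8 TPM in HD and 1.54, 1.12 and 1.1 TPM in LD (log2 fold change -0.34, SE 0.27, adjusted p = 0.993 in limma).

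The study also listed miR-1185, miR-494, miR-495, miR-665, miR-379 and miR-409a for this stage, from these same libraries. None of the 6 was DE here. Their log2 fold changes of LD over HD were -0.40 for miR-1185, -0.48 for miR-494, -0.65 for miR-495, -0.51 for miR-665, 0.76 for miR-379 and -0.03 for miR-409a, with standard errors from 0.39 to 1.33. The study gave miR-1185, miR-494, miR-495 and miR-665 as higher in LD and miR-379 as lower, opposite to the signs here. It gave miR-409a as lower in LD, the same sign as the -0.03 here. Outside the cluster, the study also listed miRNAs of the cell type lists for this stage. Of these, miR-1, miR-141, miR-143, miR-144, miR-486, miR-199a-5p and miR-429 had signs opposite to the study's. Only miR-150 (0.02) had the same sign. The reason is not known. Of the other cell types' miRNAs, miR-142-3p (1.11) and miR-142-5p (0.81) of leukocytes and miR-126-5p of endothelium (1.15) were DE and higher in LD, and no other miRNA of the lists was DE. The summed leukocyte level was 7941 to 10015 TPM in HD and 10226 to 19891 TPM in LD, the endothelial one 5071 to 8809 and 4676 to 10738 TPM, and their part in the members' differences was not tested.

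**Figure D5:**
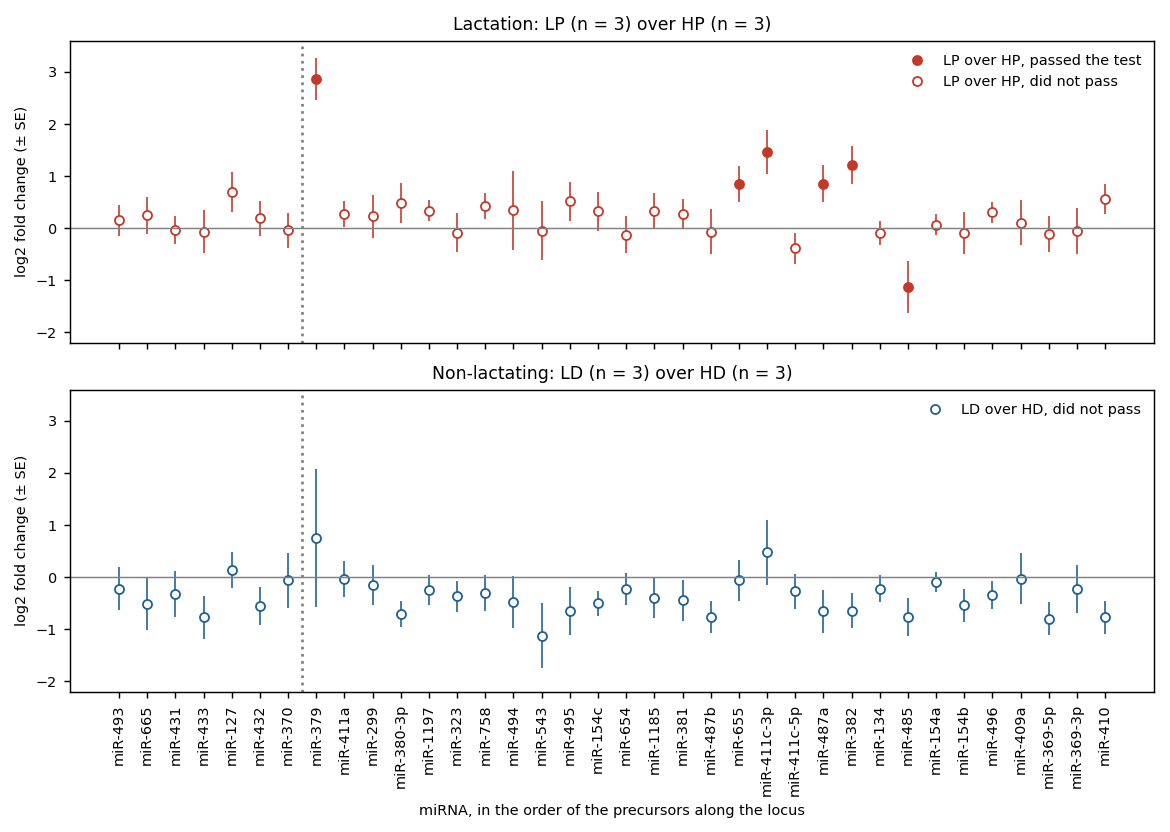
Log2 fold change with its standard error of LP over HP in lactation (top) and of LD over HD in the non-lactating period (bottom) for the 36 miRNAs in locus order, 3 libraries in each group. Filled points were DE. At the top 5 filled points lie above 0 and 1 below. At the bottom there is no filled point and 33 of 36 points lie below 0.

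The fourth comparison asked whether the difference between low and high milk protein percentage was itself different between the stages. The difference, (LP over HP) minus (LD over HD) on the log2 scale, was above 0 for 34 of the 36 members, with a median of 0.70, against -0.04 over all miRNAs. No member passed the adjustment, nor did any miRNA of the table. At an unadjusted p under 0.05 in limma there were 4 members, against 5.15% of all miRNAs. Without LD replicate 1 there were 10 members, but the share over all miRNAs was not counted in that fit. Among the 4 members with all libraries, the largest value was that of miR-382, at 1.86 (SE 0.46, unadjusted p = 0.00149 and adjusted p = 0.288 in limma). In that miRNA the LP libraries were above the HP libraries, while LD replicates 2 and 3, at 10.7 and 8.23 TPM, were below all HD libraries, at 38.0, 19.7 and 19.1 TPM, and LD replicate 1, at 24.1 TPM, was within them. The other 3 were miR-487a at 1.52 (SE 0.55, unadjusted p = 0.0168 in limma), miR-410 at 1.34 (SE 0.41, unadjusted p = 0.00649 in limma) and miR-380-3p at 1.203 (SE 0.48, unadjusted p = 0.0266 in limma). miR-379 had the largest value of all, at 2.12, but with an SE of 1.499 (unadjusted p = 0.182 in limma).

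For 2 precursors both arms had a row, so the arms could be set against each other within each library. For miR-411c the ratio of the 5p to the 3p arm was 25.1, 38.7 and 19.1 in HP and 2.74, 13.5 and 5.68 in LP. It was 9.03, 8.30 and 2.38 in HD and 4.74, 5.46 and 1.36 in LD. The 5p arm was thus the more abundant in every library, and HP lay above all the other libraries. The log2 ratio differed by -2.15 between LP and HP (exact permutation test, both sides, p = 0.1, and no smaller p is possible with 3 against 3) and by 1.55 between lactation and non-lactating (exact permutation test, p = 0.0628). Of the arms, miR-411c-3p was DE between these groups, whereas miR-411c-5p had a log2 fold change of LP over HP of -0.39 (SE 0.30).

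For miR-369 the ratio of the 3p to the 5p arm was 8.18, 4.17 and 3.65 in HP, 4.18, 5.61 and 6.07 in LP, 4.30, 0.985 and 3.56 in HD and 3.72, 4.03 and 3.37 in LD. One library, HD replicate 2, was the only one in which the arms were about equal, and the other 11 lay between 3.37 and 8.18. The log2 ratio was higher in lactation by 0.76 (exact permutation test, p = 0.0281). Over the 6 tests of arm ratios the smallest Benjamini-Hochberg value was 0.169, so no difference in arm use passed the correction.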

How the data were processed

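The deposited values are RPM, which the authors called TPM. Per the methods of the study, the authors trimmed reads with Cutadapt 2.8 and Trimmomatic 0.36, kept 18 to 30 nt, mapped them with Bowtie 1.1.1 (1 mismatch) to ARS-UCD1.2, quantified miRBase 22.0 miRNAs with miRDeep2 and kept those over 0.5 TPM in at least 2 libraries. How reads shared by close family members (such as miR-487a and miR-487b) were assigned is not given in the sources used here. Values were divided by median-of-ratios size factors and fitted as log2(value + 1) over 388 miRNAs with limma 3.58.1 in R 4.3.3 (mean-variance trend), within each stage for the phenotypes and over 12 libraries for stage and its interaction. The script was tested on simulated data. Sums, arm ratios and overlaps use deposited TPM. The group of each column was taken from its name (HP, LP, HD or LD), so every direction between the phenotypes rests on these names. Alternatives are given in the closing section. The members, gene lists and tests were chosen with earlier results of these data known. Named miRNAs are the 10 most abundant, the DE members, the 10 of smallest stage p, those the study listed, and those with 2 arms; others were named after their values were seen. miRNA sequences were not used here.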

Additional observations from a re-analysis of the deposited data

Results flagged for a closer look

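For 4 members the difference between low and high milk protein percentage differed between the stages at an unadjusted p under 0.05 by a test of the difference itself, and none passed adjustment over all miRNAs in limma. The differences, (LP over HP) minus (LD over HD) on the log2 scale, were 1.86 for miR-382 (adjusted p = 0.288), 1.34 for miR-410 (adjusted p = 0.630), 1.52 for miR-487a (adjusted p = 0.782) and 1.2 for miR-380-3p (adjusted p = 0.782) by limma. Groups of 3 libraries are too small for a test of single outlying libraries.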

How the results depend on the processing

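In lactation, 6 members were DE between HP and LP, against 39 of all 388 miRNAs. With a pseudocount of 5 the count was 2, against 22 of all 388. With a minimum mean of 10 TPM it was 2 of 17 members tested, against 27 over all miRNAs tested. With one library left out it was 3 to 6, against 24 to 53 over all miRNAs. In the non-lactating period 0 members were DE, against 13 over all miRNAs. The count was 1 with a pseudocount of 0.1 (14 over all miRNAs) and 1 with every precursor entry in the fit (14 over all entries). It was 1 with the replicate block (17 over all miRNAs) and 0 to 11 with one library left out (6 to 36 over all miRNAs). Between the stages 26 members were lower in lactation, 17 with a minimum mean of 10 TPM (25 members tested) and 20 to 27 with one library left out. Over all miRNAs, 172 passed in either direction in the main fit. That number was 113 with the minimum mean and 139 to 182 with one library left out. No member passed for the interaction under any alternative run. Without size factors the median of all miRNAs moved from 0.03 to -0.16 for LD over HD, and that of the members from -0.35 to -0.49. The main fits did not treat the replicate numbers as pairs. Correlations of deviations between same-numbered libraries ran from -0.44 to 0.55. Between HD and LD they were 0.55, -0.11 and 0.50 for replicates 1, 2 and 3. With the block 4 members were DE between HP and LP (34 over all miRNAs). In that setting 25 members were lower in lactation, and 170 of all miRNAs passed in either direction. The adjusted p of miR-379 was then 0.0925 (LP over HP, limma). The summed level of the cluster without miR-411a was 973, 1240, 3125 and 2427 TPM in HP, LP, HD and LD. With miR-411a included, the sum in HD was 11815 TPM as deposited and 10517 TPM after division by size factors.

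Reversals were limited to differences that did not pass the test. With one library left out, the log2 fold change of LD over HD ranged from -0.28 to 2.05 for miR-379 (below 0 without HD replicate 2 or LD replicate 3), from -0.33 to 0.24 for miR-411a (above 0 without HD replicate 3, LD replicate 1 or LD replicate 2) and from -0.38 to 0.44 for miR-409a (above 0 without HD replicate 3 or LD replicate 1, and 0.0050 with all 12 libraries in the fit). That of lactation over non-lactating ranged from -0.50 to 0.17 for miR-494 (above 0 without HD replicate 1, LD replicate 1, HP replicate 2 or 3, or LP replicate 1 or 3) and from -0.092 to 0.25 for miR-323 (below 0 without HP replicate 1). The cause was not tested. Planned count models on reads recovered from the values were not run, because those reads are only estimates from the steps of the values. Each group had 3 cows, and members near 1 TPM rest on few reads.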
